A study of Mus musculus with 4 samples.

Results

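A set of 36 genes that mark the blood vessels and connective tissue of the brain was examined in cerebellar tissue of Kdm6b-cKO mice. Of these genes, 21 mark endothelial cells, 8 mark mural cells, 5 mark fibroblasts, and 2 encode the collagen IV chains of the vascular basement membrane. The genes were taken from a written list of vascular and meningeal markers, and a gene was kept if it reached 0.5 counts-per-million (CPM) in at least 2 libraries. All 36 of the 36 listed genes were kept, out of 18696 kept among the 55341 genes in the count files. All 36 were also among the 16617 genes that entered the test.

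The series measured poly(A) RNA by RNA-seq in cerebellum at postnatal day 14 (P14), in 2 WT and 2 Kdm6b-cKO biological replicates, each the tissue of an individual mouse. Every animal carried Kdm6b flanked by loxP sites on both alleles (Kdm6b fl/fl), and the cKO animals carried Atoh1-Cre in addition, so the WT animals were floxed littermates without Cre. The loxP sites flank the exons of the catalytic domain, so counts outside them do not report the deletion. Atoh1 is expressed in granule neuron precursors, and the recombinase was therefore not aimed at vessels or meninges. KDM6B is a demethylase for histone H3 at lysine 27, and the comparison asked how its loss in this lineage altered gene expression in the tissue.

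Brain vessels are built from endothelial cells that line the lumen and are joined by tight junctions into the blood-brain barrier. Pericytes and smooth muscle cells, together called mural cells, wrap the endothelium, and both layers share a basement membrane in which collagen IV and laminins form a sheet. Fibroblasts lie around larger vessels and in the meninges, the membranes that cover the cerebellum, and secrete fibrillar collagens and small proteoglycans. In a tissue library these cells contribute a minor part of the RNA, and fewer cells of a type cannot be told apart from less RNA per cell.

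The libraries held 8811849 to 9892363 counts in genes. Kdm6b itself was at 154 CPM in each WT library and at 127 and 119 CPM in cKO 1 and cKO 2 (log2 fold change −0.33, SE 0.076, edgeR adjusted p = 0.0162). Xist and 4 Y-linked genes gave WT 1 the male pattern (0.431 CPM of Xist and 233 CPM of the Y-linked ones), and the female pattern to the remaining libraries (1360 to 1600 CPM and at most 0.672 CPM). Markers of the choroid plexus, an epithelium with a vascular stroma of its own, summed over 18 genes to 230.5 and 213 CPM in WT, 1185 CPM in cKO 1 and 231 CPM in cKO 2. Ttr, its most abundant transcript, was at 1.73 CPM in WT 1, 0.108 CPM in WT 2, 609 CPM in cKO 1 and 13.9 CPM in cKO 2. In WT and in cKO 2 the sum thus came mostly from other genes of the list. The like sums there do not show like levels of choroid plexus RNA. None of the 18 genes was at 0 in all libraries. Values without WT 1 and without cKO 1 are therefore given for the genes that passed the test.

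The short stretches of sequence below belong to the genes that stood out in this comparison. Col4a1 and Col4a2 lie head to head on GRCm38 chromosome 8, and their annotated starts overlap by 22 bases at chr8:11312805-11312826. These bases, credited to RefSeq (GRCm38.p6), lie at the beginning of both transcripts and are shown on each strand.
Col4a2 strand (plus): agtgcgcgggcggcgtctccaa
Col4a1 strand (minus): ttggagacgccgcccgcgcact
Acta2, on the minus strand of chromosome 19, holds a pair of stretches close to the CArG box, the element read by serum response factor in many contractile genes. In each, capitals mark the match, which has 1 letter off the consensus in its central part. The capitals begin 84 and 34 bases before the RefSeq start, and the printed stretches lie at chr19:34255438-34255467 and chr19:34255388-34255417. Both lie inside the longer span that the GENCODE annotation gives Acta2, 34241090 to 34255590.
Acta2 first match: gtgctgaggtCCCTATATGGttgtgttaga
Acta2 second match: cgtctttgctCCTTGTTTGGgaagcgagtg

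Windows from 250 bases before to 50 after the start were held by the RefSeq table for 23 of the 36 genes. A CArG box with at most 1 central mismatch was in 9.98% of all 32851 windows, and 2 or more of them in 0.822%. Of the 30 windows of the listed genes 7 held at least 1, and Acta2 was the only gene among them with 2. Tagln and Myh11, the other contractile genes of the list, had no window and were not searched. An exact CArG box was in 0 of the 30 and in 1.63% of all windows. The core GGAAGT of ETS factors such as ERG, searched on both strands, was in 9 of the 21 windows that 14 endothelial genes had (42.9%) and in 23.8% of all windows. The GC box CCGCCC, also on both strands, was present in the windows of both Col4a1 and Col4a2 and in 35.7% of all windows. Col4a1 had 1 GC box match, and it lies in the 22 bases shared with Col4a2, so both windows count the same match. Abcg2 and Egfl7 each gave more than 1 of the 9 endothelial windows with the ETS core. These percentages are therefore shares of windows and not of genes. Such matches describe letters in a window and do not show binding.

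Across the list, 2 genes rose in Kdm6b-cKO cerebellum, 0 fell, and 34 did not pass (edgeR quasi-likelihood test, adjusted p under 0.05). The genes that rose were Col4a1, a collagen IV chain, and Acta2, the actin of smooth muscle. That is 5.56% of the list, beside 1.87% of all tested genes called higher, 2.17% called lower and 4.04% called in either direction. At an unadjusted p under 0.05 the list held 4 higher and 3 lower genes, 7 of 36, beside 16.3% of all tested genes (7.81% higher and 8.5% lower). Limma-voom also called 0 genes of the list lower, as did DESeq2 among the 26 for which it gave an adjusted p. The median log2 fold change over the list was −0.049, against 0.0036 over all tested genes, and individual genes ran from −0.67 (Ly6a) to 0.90 (Acta2).

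The 2 cKO libraries lay above both WT libraries for 11 of the 36 genes (30.6%) and below both for 12 (33.3%), where each arrangement held for 23.2% of all tested genes. The 95% interval of the fold change stayed within 1.5-fold in both directions for 25 of the 36 genes. It reached past 1.5-fold for the other 11, so that for these a change of that size could not be bounded at this depth with 2 libraries a group. The 11 comprised 5 endothelial, 3 mural and 3 fibroblast genes.

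**Figure D1:**
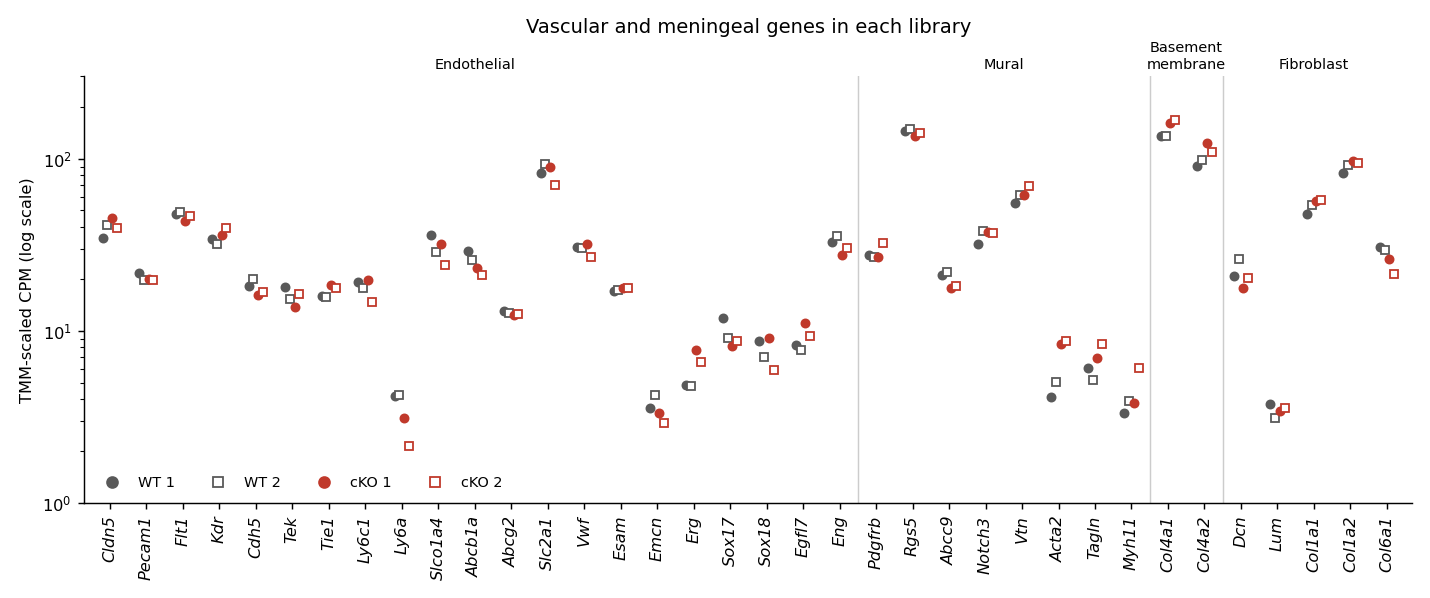
TMM-scaled CPM on a log axis for the 36 genes, grouped by class, where each library is a point coloured by genotype and shaped by replicate number. WT and cKO points overlap for 13 genes, while Acta2, Col4a1 and Col4a2 have both cKO points above both WT points.

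Both collagen IV genes were higher in each cKO library than in each WT library, and Col4a1 passed the test. Col4a1 and Col4a2 encode the alpha-1 and alpha-2 chains that join into the main collagen IV network of vascular basement membranes, and both endothelial and mural cells make them. Col4a1 (ENSMUSG00000031502.11, chromosome 8, 11198423 to 11312826, minus strand) was at 135 CPM in WT 1, 136 CPM in WT 2, 161 CPM in cKO 1 and 168 CPM in cKO 2. Both cKO libraries were above both WT libraries, by more than WT 1 and WT 2 differed from each other. Col4a1 thus rose 1.21-fold, from 135 ± 1.10 to 164 ± 4.68 CPM (mean ± SD, n = 2 each), a log2 fold change of 0.28 (95% interval 0.13 to 0.44) with edgeR adjusted p = 0.0359.

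Col4a2 (ENSMUSG00000031503.13, chromosome 8, 11312805 to 11449287, plus strand) was at 90.2 CPM in WT 1, 98.7 CPM in WT 2, 123 CPM in cKO 1 and 109 CPM in cKO 2. Again the groups did not overlap. Its fold change was 1.23, or 0.30 (95% interval 0.12 to 0.47) on the log2 scale, with edgeR adjusted p = 0.0513, just outside the threshold. Col4a1 counts exceeded Col4a2 counts by a ratio of 1.49 and 1.38 in WT and 1.31 and 1.54 in cKO, so the ratio of the pair overlapped between groups. The annotated exons of the pair share 22 bases, 0.295% of the exon length of Col4a1.

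Both collagen IV values rest on few libraries. Leaving out WT 1, WT 2, cKO 1 or cKO 2 gave Col4a1 log2 fold changes of 0.27, 0.29, 0.31 and 0.25, and its call was lost each time (edgeR adjusted p = 0.313, 0.208, 0.283 and 0.493). That of Col4a2 was 0.23, 0.37, 0.21 and 0.39. In the fits without a cKO library, 0 genes passed in edgeR anywhere in the transcriptome, with 2315 and 1718 at an unadjusted p under 0.05. The difference in Col4a1 was about as large without cKO 1, the library with the highest choroid plexus sum, or without WT 1, of male pattern. That in Col4a2 was smaller without either. Ttr was also higher in cKO 2 than in either WT library, and the part of choroid plexus RNA was not tested. The call for Col4a1 was also lost with upper-quartile scaling (edgeR adjusted p = 0.0535) and with no filter (edgeR adjusted p = 0.117), and DESeq2 gave an adjusted p of 0.0899. In edgeR, Col4a2 did pass under a replicate block (adjusted p = 0.00894), under library size alone (adjusted p = 0.0252) and without genes on X and Y (adjusted p = 0.0493).

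Among mural genes, those of the contractile apparatus had the higher ratios. Acta2 (ENSMUSG00000035783.9, chromosome 19, 34241090 to 34255590), the alpha actin of smooth muscle cells, was at 4.10 CPM in WT 1, 5.08 CPM in WT 2, 8.37 CPM in cKO 1 and 8.74 CPM in cKO 2, from 38, 47, 83 and 78 counts. Each cKO library was well above each WT library. Acta2 rose 1.86-fold, from 4.59 ± 0.690 to 8.55 ± 0.263 CPM (mean ± SD, n = 2 each), a log2 fold change of 0.90 (95% interval 0.37 to 1.42) with edgeR adjusted p = 0.0478.

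For Acta2, leaving out the same libraries in turn gave log2 fold changes of 0.75, 1.06, 0.93 and 0.87, again without a call (edgeR adjusted p = 0.339, 0.0711, 0.319 and 0.493). The call passed with library size alone, with a replicate block and without genes on X and Y, and it was lost in the other alternatives that gave an adjusted p (0.0501 to 0.137 with all 4 libraries). DESeq2 gave no adjusted p for it. Acta2 is nearly identical to other actin genes in its coding sequence, and its level is uncertain because reads aligning to several places were not counted.

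Tagln, which encodes transgelin, an actin-binding protein of smooth muscle, was at 6.04 CPM in WT 1, 5.18 CPM in WT 2, 6.96 CPM in cKO 1 and 8.40 CPM in cKO 2. Both cKO values were above both WT values, with a log2 fold change of 0.45 (95% interval −0.071 to 0.97) and edgeR adjusted p = 0.399. The antisense gene Gm48529 covers 62.4% of the exon length of Tagln, so its counts are uncertain without the strand setting, which was not given. Myh11, the myosin heavy chain of smooth muscle, was at 3.34 CPM in WT 1, 3.89 CPM in WT 2, 3.83 CPM in cKO 1 and 6.05 CPM in cKO 2, where the groups overlapped and only cKO 2 stood above WT. Its log2 fold change was 0.44 (95% interval −0.23 to 1.12), and it was 0.085 without cKO 2. Summed over these 3 contractile genes, the level was 13.5 and 14.1 CPM in WT and 19.2 and 23.2 CPM in cKO.

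Pericyte genes had smaller ratios. Rgs5, a regulator of G-protein signalling that is abundant in pericytes, had the highest level per length of the list at 31.3 RPKM (CPM divided by the exon length in kilobases, mean of the 4 libraries). It was at 144 and 148 CPM in WT compared with 136 and 142 CPM in cKO, a log2 fold change of −0.076 (95% interval −0.23 to 0.081). Pdgfrb, the receptor through which endothelial PDGF-B recruits pericytes, was at 27.6 and 26.7 CPM in WT compared with 26.9 and 32.1 CPM in cKO, with overlapping groups. Abcc9, a subunit of the pericyte potassium channel gated by ATP, was at 21.03 and 21.9 CPM in WT compared with 17.6 and 18.3 CPM in cKO, lower in both cKO libraries, with a log2 fold change of −0.26 (95% interval −0.56 to 0.043). Vtn, which encodes the matrix protein vitronectin, was at 55.01 and 61.7 CPM in WT compared with 61.1 and 69.00 CPM in cKO, and Notch3, the Notch receptor of mural cells, at 32.04 and 37.8 CPM in WT compared with 37.3 and 36.97 CPM in cKO. The sum of Pdgfrb, Rgs5, Abcc9 and Vtn was 248 and 259 CPM in WT and 241 and 261 CPM in cKO, which overlapped. The split into contractile and pericyte genes follows known roles, but was drawn with the values seen, and the difference between the 2 groups of genes was not tested.

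**Figure D2:**
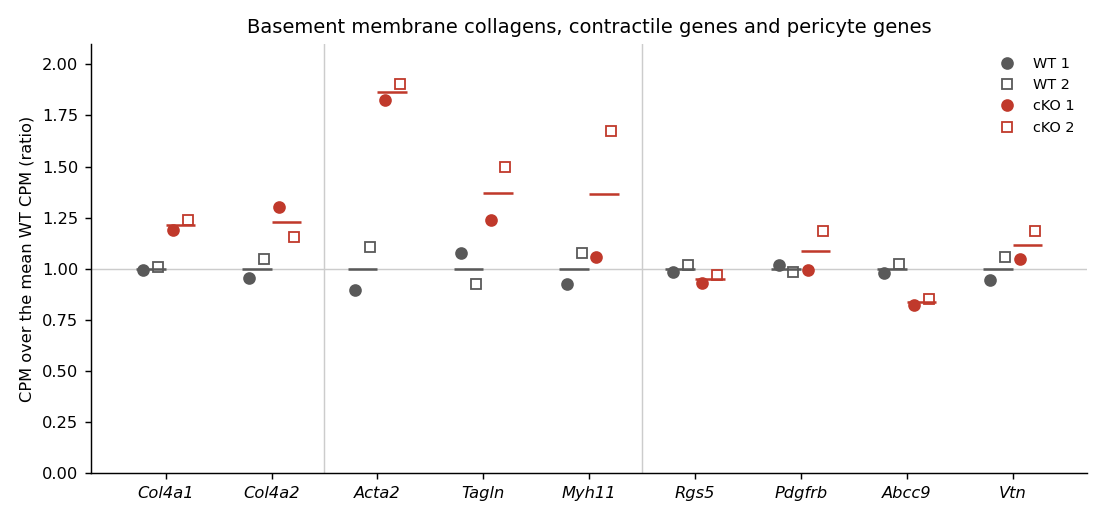
CPM of each library divided by the mean WT CPM of the gene, for the collagen IV pair, 3 contractile genes and 4 pericyte genes (points are libraries, bars are group means). For Acta2 both cKO points lie far above both WT points, while the points of Rgs5 stay near 1.

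Endothelial genes made up the largest class, and 0 of the 21 passed the test in either direction (edgeR; 1 higher and 1 lower at an unadjusted p under 0.05). Limma-voom also called 0 of the 21, and DESeq2 called 0 of the 15 for which it gave an adjusted p. The median log2 fold change of the 21 was −0.094, with 6 genes above 0 and 15 below. Against the WT mean the median was −0.017 in cKO 1 and −0.17 in cKO 2, the lower of them in cKO 2. Summed CPM over the class was 493 and 490.5 in WT and 490 and 450.3 in cKO. Of these sums, the 4 transporters described below made up 161 and 160 CPM in WT and 157 and 129 CPM in cKO.

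Junction and adhesion genes fell on both sides of 0. Cldn5 encodes claudin-5, the main tight junction claudin of brain endothelium, and was the most abundant endothelial gene per length at 28.4 RPKM. It was at 34.7 and 41.1 CPM in WT compared with 45.4 and 39.7 CPM in cKO, with overlapping groups and a log2 fold change of 0.17 (95% interval −0.078 to 0.41). Cdh5, the cadherin of endothelial adherens junctions, was at 18.1 and 19.98 CPM in WT compared with 16.2 and 16.7 CPM in cKO, below WT in both cKO libraries (log2 fold change −0.21, 95% interval −0.53 to 0.11). Pecam1, a further adhesion molecule of endothelial contacts, was at 21.8 and 19.8 CPM in WT compared with 20.1 and 19.8 CPM in cKO. Esam, an adhesion molecule at tight junctions, was at 16.9 and 17.3 CPM in WT compared with 17.7 and 17.7 CPM in cKO and differed little (log2 fold change 0.051, 95% interval −0.27 to 0.37). Emcn, the surface sialomucin endomucin, was at 3.56 and 4.21 CPM in WT compared with 3.33 and 2.91 CPM in cKO, with an interval too wide to bound a 1.5-fold change (log2 fold change −0.31, 95% interval −1.01 to 0.38).

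Receptors for vascular growth factors also did not pass. Kdr, the main signalling receptor for VEGF-A, was at 34.3 and 31.96 CPM in WT compared with 35.9 and 39.8 CPM in cKO (log2 fold change 0.19, 95% interval −0.051 to 0.43). Flt1, the receptor that binds VEGF-A with high affinity and limits its action, was at 47.5 and 48.7 CPM in WT compared with 43.6 and 46.5 CPM in cKO (log2 fold change −0.094, 95% interval −0.31 to 0.12). The cKO libraries were above WT for Kdr and below WT for Flt1, and both intervals included 0. Tek, the angiopoietin receptor TIE2, was at 17.9 and 15.3 CPM in WT compared with 13.8 and 16.4 CPM in cKO, and its partner Tie1 was at 15.96 and 15.8 CPM in WT compared with 18.5 and 17.8 CPM in cKO. Eng, the TGF-beta family co-receptor endoglin, was at 33.01 and 35.5 CPM in WT compared with 27.6 and 30.4 CPM in cKO, lower in both cKO libraries but without a call (log2 fold change −0.24, 95% interval −0.49 to 0.0077, edgeR adjusted p = 0.327). Egfl7, a secreted protein of endothelial cells and host gene of the microRNA miR-126, was at 8.31 and 7.77 CPM in WT compared with 11.1 and 9.30 CPM in cKO, higher in both cKO libraries (log2 fold change 0.34, 95% interval −0.097 to 0.79).

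None of the 4 transporters of the blood-brain barrier passed the test. Slc2a1 encodes the glucose transporter GLUT1 and was at 82.9 and 92.97 CPM in WT compared with 89.2 and 70.7 CPM in cKO, where cKO 1 lay among the WT values and cKO 2 below them (log2 fold change −0.14, 95% interval −0.34 to 0.070). Slco1a4, an organic anion transporter, was at 36.03 and 28.6 CPM in WT compared with 31.95 and 24.2 CPM in cKO (log2 fold change −0.20, 95% interval −0.50 to 0.10). Abcb1a, the efflux pump P-glycoprotein, was at 29.02 and 25.8 CPM in WT compared with 23.3 and 21.2 CPM in cKO, lower in both cKO libraries, with a log2 fold change of −0.30 (95% interval −0.58 to −0.020) and edgeR adjusted p = 0.266. Abcg2, the efflux pump BCRP, was at 13.1 and 12.6 CPM in WT compared with 12.4 and 12.5 CPM in cKO (log2 fold change −0.042, 95% interval −0.41 to 0.33). The 4 transporters, of which Slc2a1 makes up most, summed to 161 and 160 CPM in WT, 157 CPM in cKO 1 and 129 CPM in cKO 2.

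None of the 3 endothelial transcription factors passed the test. Erg, an ETS factor that maintains endothelial identity, was at 4.85 CPM in WT 1, 4.75 CPM in WT 2, 7.76 CPM in cKO 1 and 6.61 CPM in cKO 2, from 45, 44, 77 and 59 counts. Both cKO libraries were above WT by more than the WT libraries differed, with a log2 fold change of 0.58 (95% interval 0.044 to 1.12), but the gene did not pass (edgeR adjusted p = 0.261, and 0.218 to 0.595 over the alternatives). Sox17, a SOX factor of arterial endothelium, was at 11.9 and 9.07 CPM in WT compared with 8.16 and 8.74 CPM in cKO (log2 fold change −0.31, 95% interval −0.75 to 0.14), and Sox18, its relative, at 8.74 and 7.02 CPM in WT compared with 9.07 and 5.94 CPM in cKO. An unnamed transcript, Gm37587, overlaps 16.8% of the exon length of Sox17 on the other strand.

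Ly6a had the lowest ratio of the list. It encodes the surface protein Sca-1, found on endothelial cells, and was at 4.21 CPM in WT 1, 4.21 CPM in WT 2, 3.12 CPM in cKO 1 and 2.13 CPM in cKO 2, from 39, 39, 31 and 19 counts. Both cKO libraries lay below both WT libraries, yet the interval was wide (log2 fold change −0.67, 95% interval −1.39 to 0.051, edgeR adjusted p = 0.354). Ly6c1, a related surface protein of brain endothelium, was at 19.3 and 17.7 CPM in WT compared with 19.9 and 14.7 CPM in cKO, with only cKO 2 below WT. Ly6 genes have close copies, so their counts are uncertain. Vwf, the von Willebrand factor stored by endothelial cells, was at 30.8 and 30.2 CPM in WT compared with 31.9 and 26.8 CPM in cKO (log2 fold change −0.057, 95% interval −0.32 to 0.21).

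**Figure D3:**
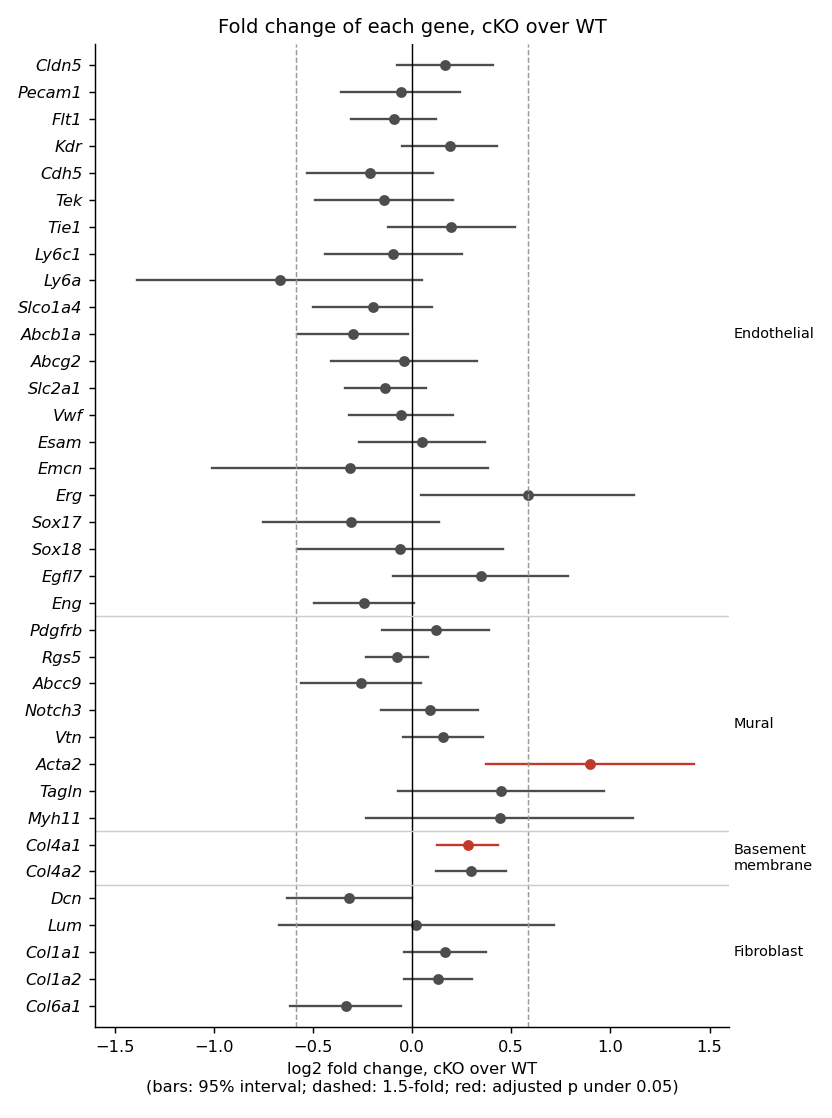
Log2 fold change of cKO over WT (point) with its 95% interval (bar) from edgeR for each of the 36 genes, by class, with dashed lines at 1.5-fold. Col4a1 and Acta2, in red, passed the threshold, and the intervals of 25 genes lie between the dashed lines.

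No fibroblast gene passed the test. Of 5 genes, 0 passed in edgeR (0 higher and 2 lower at an unadjusted p under 0.05), 0 in limma-voom and 0 of the 4 with an adjusted p in DESeq2. Col1a1 and Col1a2, the chains of type I collagen, were at 47.9 and 53.9 CPM in WT compared with 56.7 and 57.5 CPM in cKO and at 82.7 and 91.9 CPM in WT compared with 96.97 and 94.3 CPM in cKO. Both were slightly above WT in both cKO libraries, with log2 fold changes of 0.17 (95% interval −0.039 to 0.37) and 0.13 (95% interval −0.040 to 0.30). Col6a1, a chain of the beaded-filament collagen VI, was at 30.5 and 29.6 CPM in WT compared with 26.1 and 21.4 CPM in cKO, lower in both cKO libraries (log2 fold change −0.34, 95% interval −0.61 to −0.058, edgeR adjusted p = 0.193). Dcn, the small proteoglycan decorin, was at 20.9 and 26.2 CPM in WT compared with 17.6 and 20.3 CPM in cKO, also lower in both (log2 fold change −0.32, 95% interval −0.63 to −0.00055, edgeR adjusted p = 0.305). Lum, the related proteoglycan lumican, was at 3.78 and 3.13 CPM in WT compared with 3.43 and 3.58 CPM in cKO, with overlapping groups and an interval that reached past 1.5-fold on both sides (log2 fold change 0.021, 95% interval −0.67 to 0.72). The class summed to 186 and 205 CPM in WT and 201 and 197 CPM in cKO.

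Levels per length set the classes apart from each other only loosely. Over the 4 libraries the median was 3.46 RPKM for endothelial genes, 3.90 RPKM for mural genes and 6.14 RPKM for fibroblast genes. Col4a1 and Col4a2 were at 20.1 and 15.9 RPKM. Slc2a1 (23.9 RPKM) and Vtn (30.4 RPKM) were near Cldn5 and Rgs5 at the top, and Emcn (0.648 RPKM) and Myh11 (0.563 RPKM) were lowest. Markers of every class were thus present in each library, in tissue labelled as cerebellum.

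**Figure D4:**
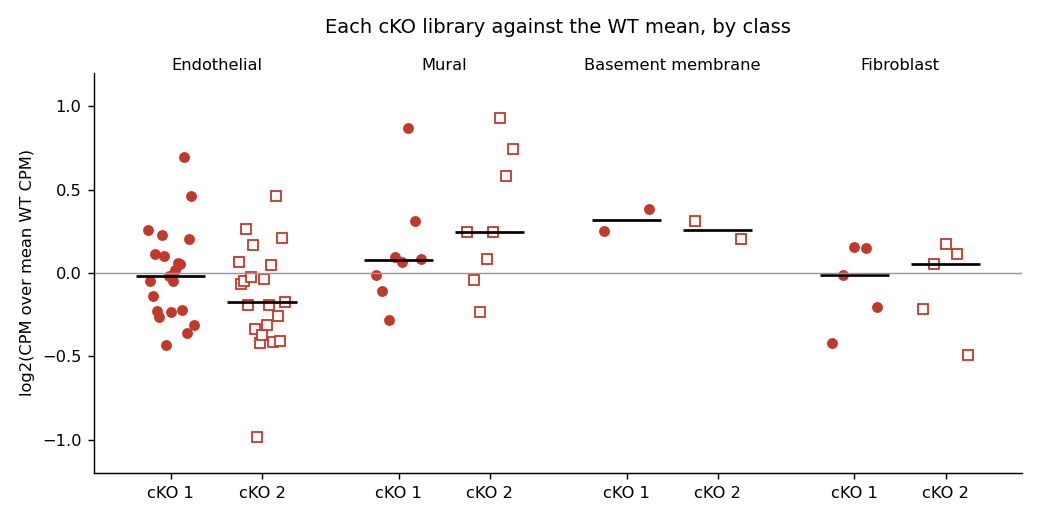
Log2 of the CPM in each cKO library over the mean WT CPM, 1 point per gene (filled circles cKO 1, open squares cKO 2; bars are class medians). Endothelial medians are −0.017 in cKO 1 and −0.17 in cKO 2, mural medians 0.075 and 0.24, collagen IV medians 0.32 and 0.26, and fibroblast medians −0.011 and 0.054.

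The cKO libraries also differed from each other in the mural class, whose median was 0.075 in cKO 1 and 0.24 in cKO 2 on the log2 scale. Against the same WT mean, WT 1 and WT 2 had medians of −0.057 and 0.055 for mural genes, 0.015 and −0.016 for endothelial genes and −0.078 and 0.074 for fibroblast genes. Both fibroblast medians in cKO, −0.011 and 0.054, thus lay between those of the WT libraries. For the collagen IV pair, 0.32 and 0.26 in cKO lay above −0.037 and 0.036 in WT. The 2 cKO libraries share the WT libraries as their reference and are not independent of each other in these values.

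Further genes of the same pathways were read from longer lists of known members. Of 33 barrier and transport genes 0 rose and 0 fell in edgeR (3 higher and 1 lower at an unadjusted p under 0.05), with a median of 0.011, and medians against the WT mean of 0.019 in cKO 1 and −0.046 in cKO 2. The smallest p there was that of Jam2, a junctional adhesion molecule, at 80.8 and 70.7 CPM in WT compared with 54.4 and 67.5 CPM in cKO (edgeR adjusted p = 0.0966). Of 30 tested genes of VEGF, angiopoietin, Notch and TGF-beta signalling 0 rose and 0 fell (1 higher and 1 lower before adjustment), with S1pr1, a receptor for sphingosine-1-phosphate, at 134 and 134 CPM in WT compared with 123 and 99.2 CPM in cKO (edgeR adjusted p = 0.108). Of 18 genes of the Wnt pathway that builds the barrier 1 rose, Nkd1, an intracellular Wnt antagonist, at 50.2 and 70.6 CPM in WT compared with 73.1 and 92.1 CPM in cKO (0.45 on the log2 scale, SE 0.12, edgeR adjusted p = 0.0454). Beside these 3 lists, 1.87% of all tested genes were called higher and 2.17% lower. At an unadjusted p under 0.05 in edgeR, those shares were 7.81% and 8.5%. A single call in a list of this size is near them.

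Of 31 tested genes of endothelial identity 1 rose and 0 fell, with a median of 0.070, 19 genes above 0 and 12 below. Against the WT mean the median of this list was 0.072 in cKO 1 and 0.099 in cKO 2. These lay above 0, where those of the shorter endothelial class lay below. At an unadjusted p under 0.05 in edgeR, 3 were higher and 5 lower. Over all tested genes, 7.81% were higher and 8.5% lower at that cut, and 1.87% were called higher. The gene that rose was Ets1, an ETS factor, at 14.8 and 15.7 CPM in WT compared with 22.6 and 23.2 CPM in cKO (0.59 on the log2 scale, SE 0.15, edgeR adjusted p = 0.0277). Of 21 tested artery and vein genes 2 rose and 0 fell, with 5 higher and 0 lower before adjustment and a median of 0.16. Nr2f2, a nuclear receptor that specifies veins and is also found in neurons, was at 10.7 and 16.7 CPM in WT compared with 31.8 and 27.2 CPM in cKO (1.11, SE 0.17, edgeR adjusted p = 5.56e-04). Tmsb10, an actin-binding peptide of immature neurons as well as vessels, was at 150.3 and 181 CPM in WT compared with 212 and 257 CPM in cKO (0.50, SE 0.092, edgeR adjusted p = 0.00264). These genes are not limited to vessels, so their values do not give a level for vascular cells. Without either cKO library no gene of these longer lists passed, as 0 genes passed at all.

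Of 29 tested further mural genes 1 fell and 0 rose, with a median log2 fold change of 0.13, 20 genes above 0 and 9 below. In edgeR, 3 were higher and 2 lower at an unadjusted p under 0.05. Pde5a, a phosphodiesterase that degrades cyclic GMP, fell and was at 66.9 and 66.1 CPM in WT compared with 51.4 and 48.4 CPM in cKO (−0.41, SE 0.093, edgeR adjusted p = 0.0131). Pde5a is also expressed in Purkinje neurons. Of 40 tested genes of fibroblasts and meninges 1 rose and 1 fell, with 4 higher and 8 lower at an unadjusted p under 0.05. Both lists are to be read beside all tested genes, of which 7.81% were higher and 8.5% lower at that cut. Of all tested genes, 1.87% were called higher and 2.17% lower. Igfbp2, a binding protein of insulin-like growth factors, rose and was at 20.7 and 22.6 CPM in WT compared with 47.2 and 32.04 CPM in cKO (0.88, SE 0.15, edgeR adjusted p = 0.00153) and was highest in cKO 1. Igfbp5, from the same family, fell and was at 239.6 and 259.8 CPM in WT compared with 198 and 197 CPM in cKO (−0.34, SE 0.070, edgeR adjusted p = 0.00747).

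Of 34 further basement membrane and matrix genes 0 rose and 1 fell, with 9 higher and 2 lower at an unadjusted p under 0.05 and a median of 0.14. These are to be read beside the 7.81% and 8.5% of all tested genes at that cut. Summed CPM of the list was 4293 and 4236 in WT and 3972 and 3860 in cKO, lower in both cKO libraries. The gene that fell was Sparc, a collagen-binding matrix protein that glia also make, at 1068 and 1005 CPM in WT compared with 780.4 and 777 CPM in cKO (−0.41, SE 0.068, edgeR adjusted p = 9.20e-04). Most of the difference in the summed CPM came from Sparc. The 9 on the higher side, named after their values were seen, were Col18a1, Lamc3, Agrn, Col4a3, Nid1, Mmp14, Nid2, Hspg2 and Lamb1, most of them parts of basement membranes. None of the 9 passed the test, and of the 34 genes 23 had a log2 fold change above 0 and 11 below. Col18a1, the collagen that releases endostatin, was at 121 and 128 CPM in WT compared with 162 and 140.1 CPM in cKO (0.28, edgeR adjusted p = 0.0562). Lamc3, a laminin gamma chain, was at 12.4 and 9.50 CPM in WT compared with 17.4 and 16.1 CPM in cKO (0.62, edgeR adjusted p = 0.0584). Col4a3, a collagen IV chain of other basement membranes, was at 0.539 CPM in WT 1, 0.972 CPM in WT 2, 3.12 CPM in cKO 1 and 1.46 CPM in cKO 2, highest in cKO 1 (edgeR adjusted p = 0.116). Agrn, the proteoglycan agrin, was at 129.5 and 124 CPM in WT compared with 149 and 151 CPM in cKO (0.24, edgeR adjusted p = 0.0854), and Nid1, which links collagen IV to laminin, was at 133 and 133 CPM in WT compared with 148 and 158 CPM in cKO (0.20, edgeR adjusted p = 0.168).

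**Figure D5:**
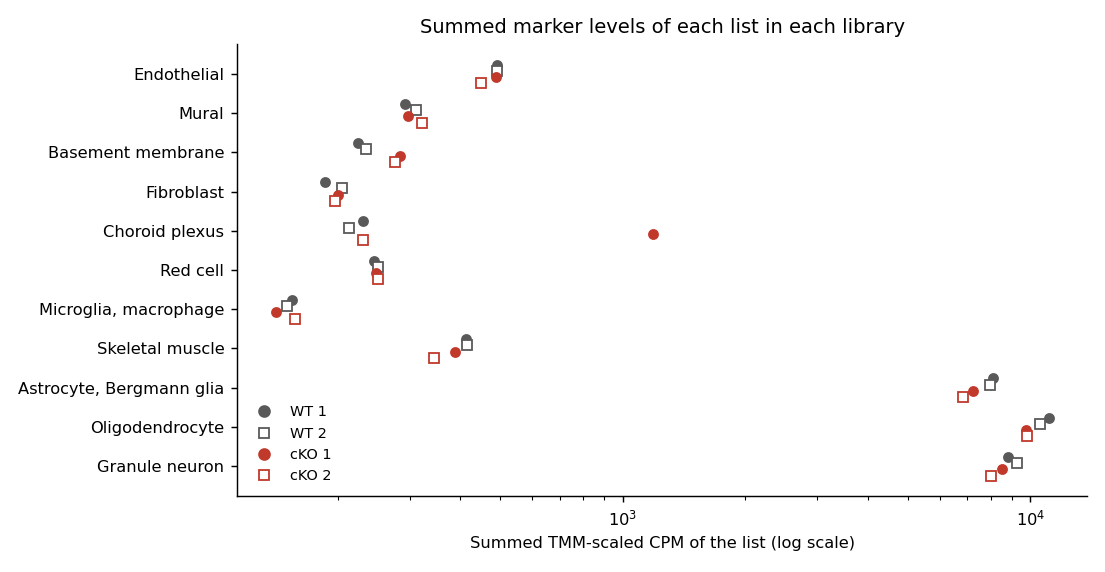
Summed CPM (log axis) of the 4 vascular groups of genes and of marker lists of other cells, 1 point per library. The endothelial, mural and fibroblast sums lie close together, collagen IV is higher in both cKO libraries, and the choroid plexus sum reaches 1185 CPM in cKO 1 alone.

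Markers of other cells were read beside these values. Red cell markers, which reflect blood left in the vessels, summed over 9 genes to 245 and 251 CPM in WT and 249 and 251 CPM in cKO, and microglia and macrophage markers over 15 genes to 154 and 150 CPM in WT and 141 and 157 CPM in cKO. Skeletal muscle markers, 16 genes, summed to 413 and 414 CPM in WT and 389 and 345 CPM in cKO, most of it from Pvalb, which cerebellar neurons also express. Ependymal markers, 8 genes, summed to 18.6 to 26.3 CPM in WT and 21.2 to 24.3 CPM in cKO. Astrocyte and Bergmann glia markers (13 genes) summed to 8084 and 7939 CPM in WT and 7210 and 6827 CPM in cKO, oligodendrocyte markers (14 genes) to 11090 and 10570 CPM and to 9740 and 9831 CPM, and granule neuron markers (12 genes) to 8827 and 9260 CPM and to 8508 and 8007 CPM. These last 3 sums were lower in both cKO libraries, and their part in the ratios of the vascular genes was not tested.

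Plvap, named after its values were seen, a protein of fenestrated vessels such as those of the choroid plexus, was at 8.31 CPM in WT 1, 5.51 CPM in WT 2, 8.27 CPM in cKO 1 and 11.1 CPM in cKO 2, highest in cKO 2. Against the WT mean, the log2 ratio in cKO 1 and cKO 2 was 0.87 and 0.93 for Acta2, 0.25 and 0.31 for Col4a1 and 0.38 and 0.21 for Col4a2. The part of choroid plexus RNA in these ratios was not tested.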

How the data were processed

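RNA-seq libraries of P14 cerebellum (2 WT, 2 Kdm6b-cKO, grouped by sample title) were analysed. Per the submitters' processing notes and the study's methods, the authors used Trimmomatic 0.38 for trimming, STAR 2.7.2b for alignment (GRCm38, mm10) and HTSeq for counting over exons, with a strand setting that is not given in the sources used here. Deposited values are whole-number counts per gene, not normalised; entries naming no gene were left out, and genes held 39% to 40.5% of each total. Genes were filtered with filterByExpr and scaled by TMM in edgeR 4.0.16 (R 4.3.3), and cKO was compared with WT by the quasi-likelihood test (two-sided, Benjamini-Hochberg over 16617 genes, threshold 0.05). The script was tested on simulated data. Intervals use the test's standard error and degrees of freedom. With 2 libraries a group, depth and their number both limit precision. Coordinates and exon lengths came from GENCODE M21 (GRCm38), and promoter windows from RefSeq (GRCm38.p6). The genes and lists were chosen with earlier results of these data known. All 36 genes are named; for longer lists the rule names at most 3 called genes, by p, and otherwise the one of lowest p. Plvap and 9 matrix genes were named outside it, after their values were seen. Alternatives covered scaling, filters, DESeq2 1.42.0, limma-voom (limma 3.58.1), a replicate block, X and Y genes and each library left out.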

Additional observations from a re-analysis of the deposited data

How the results depend on the processing

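Replicates were counted separately, since their counts differed beyond sampling noise (chi-square over degrees of freedom, 3.51 in WT and 3.82 in cKO). Of the 36 genes, 28 kept their direction in every alternative that gave them a value (8 of these had no DESeq2 adjusted p and were not assessed there), and 3 (Col4a1, Acta2 and Col4a2) passed in at least 1. The number of listed genes called higher was 2, and it was 1 with DESeq2 size factors, with a CPM filter of 0.5 and in limma-voom, and 0 with upper-quartile scaling, with no filter and, among the 26 genes with an adjusted p, in DESeq2. It was 3 with library size alone and without X and Y genes. With 1 library left out no call of a listed gene held, and no listed gene was called lower in any alternative. Over all genes, 71 higher and 106 lower were called with no filter and 137 and 183 in DESeq2, against 310 and 361. With 1 library left out the higher calls ranged from 0 to 263 and the lower calls from 0 to 244, with the spread for a lone library taken from the other genotype. Higher genes made up 46.2% of calls, 59.8% with library size alone and 37% with upper-quartile scaling.

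With 1 library left out, the class medians on the log2 scale ranged from −0.11 to 0.058 for fibroblast genes, from 0.077 to 0.24 for mural genes, from −0.17 to −0.015 for endothelial genes and from 0.25 to 0.33 for the collagen IV pair. Some genes without a call changed sign, and the cause was not tested. With 1 library left out the log2 fold change ranged from −0.13 to 0.014 for Pecam1, from −0.33 to 0.10 for Ly6c1, from −0.31 to 0.022 for Slc2a1, from −0.19 to 0.062 for Vwf, from −0.41 to 0.20 for Sox18, from −0.010 to 0.25 for Pdgfrb, from −0.025 to 0.21 for Notch3 and from −0.11 to 0.16 for Lum.

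The replicate block called 549 genes higher and 581 lower, with 3 listed genes higher (Col4a2 added). The replicate numbers carry no stated pairing, and the differences between replicates of WT and of cKO correlated at 0.0429 over 16617 genes. That value cannot show whether animals with the same number shared a litter or a preparation, and the main fit assumed no pairing.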
